A study of Mus musculus with 2 samples.

Results

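Cholangiocyte-like cells, taken as cells with RNA of the epithelium that lines bile ducts, were described in a droplet single-cell RNA library of early liver lesions. They were chosen by measured values: a barcode belonged to them when Krt19, Krt7, Epcam and Tspan8 together reached at least 3 UMIs, Alb took under 0.5% of its UMIs, and that duct sum was above the sum of the Kupffer cell genes Clec4f, Vsig4, Cd5l and Marco. A UMI (unique molecular identifier) count is the number of captured RNA molecules. Of 2461 kept barcodes in the library, 104 met the rule, which is 4.23% (95% Clopper-Pearson interval 3.47 to 5.10).

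The cells came from the Rb family triple knockout mouse, a model of hepatocellular carcinoma in which floxed alleles are recombined by Cre. Livers were dissociated by enzymes, and YFP-positive cells were sorted by flow cytometry without any treatment of the animals. YFP served as the mark of Cre action, and whether Cre had acted in each barcode was not tested. The early-lesion library pooled 3 mice whose cells cannot be assigned to an animal, and the only other library held cells of macroscopic lesions. The labels used here name neither the promoter that drives Cre, nor the ages, nor the number of mice behind the macroscopic library. With 1 library per stage no test between samples was possible, so every interval below covers counting error only and cells are not replicates.

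Cholangiocytes form a polarised epithelium that receives bile from hepatocytes, moves ions and water across its membrane and carries a primary cilium that senses bile flow. Duct cells and hepatocytes descend from a common embryonic progenitor, and the balance between the fates involves the transcription factor SOX9, Notch signalling and the coactivator YAP. Albumin and the apolipoproteins are classical products of hepatocytes, whereas keratin 7, keratin 19 and EpCAM mark ducts.

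The targeted genes gave little signal at this depth. Rb1 had 21 UMIs in 16.3% of the cholangiocyte-like cells, and Rbl2, which encodes p130, had 46 UMIs in 38.5%. Rbl1, which encodes p107, had 0 UMIs in the 104 cells, which allows up to 2.01 CPM at a floor of 3 UMIs, where CPM is the summed UMIs of a gene scaled to 1000000 UMIs of the set. Libraries of this kind count the 3' ends of transcripts, and a tag outside the deleted part of a gene checks nothing, so these counts do not test the knockout.

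The cholangiocyte-like cells were deep and complex. Each held 5260 to 35961 UMIs with a median of 10927, against a median of 2917 in the other 2357 kept barcodes. Their median number of genes was 3979, mitochondrial genes took a median of 5.43% of UMIs against 8.22%, and the nuclear RNA Malat1 took 1.65% against 0.637%. Summed, the 104 cells held 1490131 UMIs, so that 1 UMI was 0.671 CPM. No barcode was shared between the libraries. Scrublet called 2 doublets in the whole early library and none of them among these cells, a share of 0.0813% of kept barcodes at which the caller cannot be taken to have worked.

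Other barcodes of the same library served for comparison in 3 sets. The first was all other kept barcodes. The second was 37 barcodes with Alb at 0.5% of UMIs or more, a Kupffer sum under 3 UMIs and a duct sum under 3, called Alb-high below (median 18183 UMIs). That choice takes out barcodes with duct genes, so 0 UMIs of a duct gene in this set partly follows from it. The last was 1865 Kupffer-marker barcodes (median 2647 UMIs), with a Kupffer sum of at least 3 UMIs that was above the duct sum and Alb under 0.5%, which made up most of this YFP-sorted library.

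The rule genes are given as a description, because they chose the cells. Krt19 (ENSMUSG00000020911, chr11:100140810-100148665, minus strand, GRCm38) encodes the type I keratin of ducts and ranged over the cells from 0 through a median of 258 to 2529 CPM. Krt7 (ENSMUSG00000023039, chr15:101411043-101430313, plus strand), a type II keratin, ranged from 0 through 174 to 6256 CPM. Epcam (ENSMUSG00000045394, chr17:87635979-87651129, plus strand), an epithelial adhesion molecule, had a median of 1222 CPM and was at 0 in 1 cell, whereas the tetraspanin Tspan8 was at 0 in 29 cells. Epcam therefore carried membership in nearly every cell, and the others varied beside it. In the Alb-high barcodes, which were chosen for a low duct sum, Krt19 and Krt7 had 0 UMIs, and Epcam had a summed level of 2.95 CPM.

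Membership was not decided close to the UMI limit. The lowest duct sum of a member was 4 UMIs, and 93 of the 104 cells had 12 or more. Just outside, 8 kept barcodes had a duct sum of 2, of which 2 had Alb under the limit, each with 2 Epcam UMIs and 0 Spp1 UMIs. The Alb limit cut through a denser region. Among the members 8 cells had Alb at 0.4 to 0.5% of UMIs, and 23 barcodes with a duct sum of at least 3 were left out for Alb at 0.511 to 3.12%. A single further barcode was left out for its Kupffer sum of 168 UMIs against a duct sum of 23, 21 of them Krt19.

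Markers outside the rule are given as a description too. Of these Spp1 and Clu belong to the markers of the label itself, so their levels do not test it. Spp1 (ENSMUSG00000029304, chr5:104435118-104441050, plus strand), which encodes the secreted phosphoprotein osteopontin, ranged from 0 through a median of 24798 to 74659 CPM per cell and was found in 102 of 104 cells. Its summed level was 26892 CPM (26630 to 27157) against 1091 CPM in the Alb-high and 42.0 CPM in the Kupffer-marker barcodes. Clu (ENSMUSG00000022037), which encodes the secreted chaperone clusterin, had a median of 19647 CPM per cell, with a highest value of 54358. Both transcripts were high in nearly all of the cells, and the range of Spp1 from the tenth to the ninetieth percentile lay above that of the Alb-high barcodes, of which the highest reached 11052 CPM. Sox9, a transcription factor of duct and progenitor cells, was at 760 CPM in sum against 111 CPM in the Alb-high barcodes. Cd24a, a surface glycoprotein of progenitor and duct cells, was at 729 CPM and at 0 UMIs in the Alb-high barcodes. In the 23 barcodes with a duct sum of at least 3 left out for Alb it was at 197 CPM. Cldn7, a tight-junction claudin, was at 486 against 72.3 CPM, and Cftr, the chloride channel of bile secretion, had 39 UMIs in 25% of the cells against 0.

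**Figure D1:**
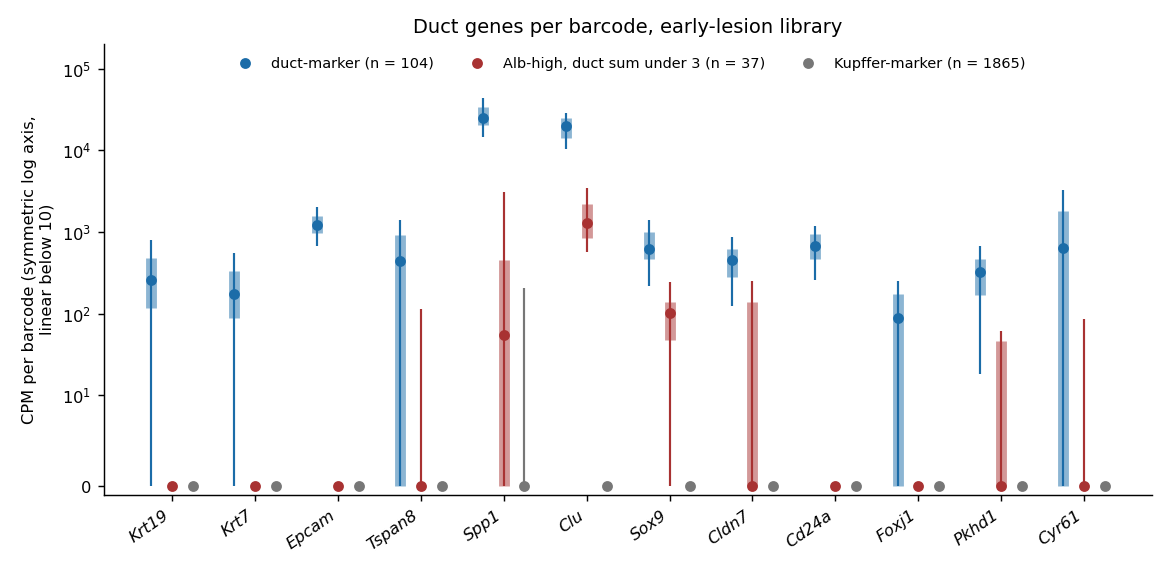
CPM per barcode (symmetric log axis, linear below 10) of 12 duct genes in the 104 cholangiocyte-like cells (duct-marker), 37 Alb-high and 1865 Kupffer-marker barcodes. Points are medians, thick bars the range between the quartiles and thin lines the tenth to ninetieth percentiles. Spp1 and Clu have medians of 24798 and 19647 CPM in the cholangiocyte-like cells, and Krt19, Krt7, Epcam and Cd24a have medians of 0 in both other sets.

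Across all genes, the contrast with the other kept barcodes was wide. A gene was called measured with at least 10 CPM in either sum and at least 20 UMIs in both together, and higher or lower at a 2-fold ratio of summed CPM. Of 10628 measured genes 3495 (32.9%) were higher in the cholangiocyte-like cells and 1599 (15%) lower, with a median log2 ratio over all genes of 0.53. Against the Alb-high barcodes 3063 of 9851 genes (31.1%) were higher and 1039 (10.5%) lower, with a median of 0.50. Against the Kupffer-marker barcodes 3928 of 10416 (37.7%) were higher and 1615 (15.5%) lower, with a median of 0.59. A median-of-ratios scaling moved all log2 ratios by -0.65 against the other kept barcodes, by -0.43 against the Alb-high barcodes and by -0.68 against the Kupffer-marker barcodes. Under it 2017 genes were higher and 2547 lower than in the other kept barcodes, so the split of all genes depends on the scaling and gene groups are read against these shares. The lists of genes were drawn up with earlier results of these data known, and their counts describe the cells without testing them.

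Epithelial junction genes were higher in both contrasts. Of 34 measured adhesion and junction genes, 33 were higher than in the other kept barcodes and none lower (median log2 ratio 4.75), and 28 were higher than in the Alb-high barcodes and none lower (2.15). The list holds the rule gene Epcam, and without rule genes its medians were 4.70 and 1.98. Cldn3, a tight-junction claudin, had 623 CPM against 358 in the Alb-high barcodes. Cdh1, which encodes E-cadherin of adherens junctions, had 366 against 92.9 CPM, and the desmosomal genes Dsg2 and Dsp had 405 against 53.1 and 213 against 42.8 CPM. The cell-surface protease inhibitors differed between themselves: Spint1 had 185 against 1.47 CPM, or 1 UMI, whereas Spint2 had 723 against 192 CPM. All of the junction genes named here had UMIs in the Alb-high barcodes too.

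Transcription factors of ducts showed the same direction. Of 19 measured, 18 were higher than in the other kept barcodes and 1 lower (median 4.51), and of 20 measured against the Alb-high barcodes 16 were higher and 1 lower (1.85). Sox4, an HMG-box factor that acts with SOX9 in duct formation, had 729 against 48.7 CPM in the Alb-high barcodes (15-fold), and Onecut2 had 662 against 155 CPM. Ehf and Klf5, factors of simple epithelia, had 194 and 67.1 CPM and 0 UMIs in the Alb-high barcodes. Pax8, better known from kidney and thyroid, had 95 UMIs in 27.9% of the cells, against 3 UMIs in all other kept barcodes. The exception was Id3, an inhibitor of basic helix-loop-helix factors, at 154 against 427 CPM in the other kept barcodes.

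Liver factors were not absent from the cholangiocyte-like cells. Prox1, an early hepatoblast factor, was at 170 CPM against 105 in the Alb-high barcodes, and Foxa2, a pioneer factor of endoderm, was at 85.2 against 41.3 CPM. Hnf4a, the nuclear receptor central to hepatocyte genes, had 44 UMIs in 28.8% of the cells, 29.5 against 198 CPM, a ratio of 0.149. Of 11 measured hepatocyte factors 8 were lower than in the Alb-high barcodes and 2 higher (median -1.74). Within this list, in which Foxa2 was not counted, the 2 higher genes were Onecut1 and Nr0b2. Nr0b2, the bile-acid-induced repressor SHP, was at 106 against 35.4 CPM.

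Transport genes of bile ducts were present at graded levels. Of 23 measured, 14 were higher and 5 lower than in the other kept barcodes (median 2.34), and 14 higher and 2 lower than in the Alb-high barcodes (1.67). The sodium pump subunit Atp1b1 had 953 against 159 CPM in the Alb-high barcodes, the sodium-glucose cotransporter Slc5a1 had 142 against 26.5 CPM, and the calcium-activated chloride channel Ano1 had 63.8 against 4.42 CPM. The secretin receptor Sctr had 15 UMIs in 12.5% of the cells and 0 in the Alb-high barcodes. Carbonic anhydrase Car2 and the bicarbonate cotransporter Slc4a4 had 103 against 112 and 89.9 against 124 CPM, so these transcripts were shared with the Alb-high barcodes. Aqp1, a water channel of duct cells, had 9 UMIs, 6.04 against 19.2 CPM.

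Secreted and mucosal products made up a large part of the RNA. Of 31 measured genes of this list 26 were higher and 2 lower than in the other kept barcodes (median 3.40), and 23 higher and 4 lower than in the Alb-high barcodes (2.53). Without rule genes this list had medians of 3.29 and 2.49. Its sum ranged over the cells from 4420 through a median of 61757 to 116455 CPM, chiefly Spp1 and Clu. Cryab, a small heat-shock protein, had 453 CPM and 0 UMIs in the Alb-high barcodes, and the mucin Muc1 had 113 against 1.47 CPM. Mmp7, a matrix metalloproteinase made by injured duct epithelium, was found in 32.7% of the cells and at 0 UMIs in the Alb-high barcodes. Ceruloplasmin Cp and lipocalin Lcn2 did not separate the sets, at 1952 against 1933 and 1135 against 1116 CPM. The immunoglobulin receptor Pigr was lower, at 117 against 500 CPM.

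Genes of the primary cilium and of planar polarity were higher in a block. Of 34 measured 29 were higher and none lower than in the other kept barcodes (median 2.69), and of 33 measured 23 were higher and none lower than in the Alb-high barcodes (1.80). Bicc1, an RNA-binding regulator of cystic kidney genes, had 672 against 122 CPM, and Pkhd1, which encodes the fibrocystin lost in congenital hepatic fibrosis, had 342 against 22.1 CPM. Pkd2, the polycystin channel, had 114 against 14.7 CPM, and the transport protein Ift57 had 134 against 8.85 CPM. Foxj1, a factor better known from motile cilia, had 202 UMIs in 65.4% of the cells, with 0 through a median of 88.8 to 703 CPM per cell. It had 13 UMIs in all other kept barcodes, all in 8 of the 23 barcodes with a duct sum of at least 3 left out for Alb. The Alb-high barcodes, chosen for a low duct sum, had 0 UMIs, as had the Kupffer-marker barcodes. The ratio of Foxj1 over the other kept barcodes was 108 (61.8 to 207). Thinned to 1000 UMIs per barcode, 12.5% of the cells kept a Foxj1 UMI.

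Receptors and ligands of WNT, BMP, FGF, HGF and EGF signalling were mostly higher too. Of 41 measured 32 were higher and 3 lower than in the other kept barcodes (median 2.58), and 27 higher and 1 lower than in the Alb-high barcodes (1.42). Fgfr3 had 282 against 23.6 CPM, Fgfr2, whose fusions occur in bile-duct cancer, had 102 against 44.2 CPM, and the ligand Wnt4 had 199 against 4.42 CPM. The platelet-derived growth factor Pdgfc had 173 against 7.37 CPM. The HGF receptor Met, at 73.1 against 48.7 CPM, and the EGF receptor family genes Erbb3 (53.7 against 51.6 CPM) and Egfr (25.5 against 22.1 CPM) differed little. Areg, an EGF receptor ligand, had 0 UMIs.

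Matrix and integrin genes included several of the epithelial basement membrane. Of 31 measured 21 were higher and 2 lower than in the other kept barcodes (median 2.80), and of 30 measured 23 were higher and 2 lower than in the Alb-high barcodes (2.35). Median-of-ratios scaling gave 20 higher and 6 lower in the first of these contrasts. Sparc, a matricellular protein, had 535 against 11.8 CPM in the Alb-high barcodes, and Lama5, a laminin chain, had 56.4 against 8.85 CPM. The integrin chain Itgb4, a laminin receptor of hemidesmosomes, had 51.7 against 1.47 CPM. Itgb6, a chain of an integrin that activates TGF-beta, had 34 UMIs in 23.1% of the cells and none in the other 2357 barcodes, at least 78.9-fold higher against the floor of 3 UMIs. Fibrillar collagen genes had 14 Col3a1, 5 Col1a1 and 5 Col1a2 UMIs, each in 1 cell, of which the Col3a1 UMIs lay in a cell described below.

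Notch genes split by gene rather than moving as a list, with 2 higher and 7 lower of 19 measured against the other kept barcodes (median -0.60) and 7 higher and 2 lower of 17 against the Alb-high barcodes (0.63). Under the median-of-ratios scaling these counts were 2 and 11 against the former and 4 and 3 against the latter (0.20). The target gene Hes1 ranged from 0 through a median of 203 to 6779 CPM per cell, at 893 CPM in sum against 36.9 in the Alb-high barcodes. The ligand Jag1, mutated in Alagille syndrome with its loss of bile ducts, had 110 against 1.47 CPM, and Notch2 had 72.5 against 32.4 CPM. Hey1, another target gene, had 2 UMIs, and Nrarp had 4. Of these 3 target genes Hes1 alone was frequent, and it varied with the immediate-early genes, as given below.

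Cytokine genes were few but some were concentrated. Il34, a ligand of the macrophage receptor CSF1R, had 50 UMIs in 26.0% of the cells and 1 UMI in all other kept barcodes (ratio 348, 59.6 to 14014). Il17re, the receptor for the epithelial cytokine IL-17C, had 104 UMIs in 55.8% of the cells and 4 in the others (ratio 181, 68.6 to 676). Ccl2, the monocyte chemokine, was at 338 CPM in sum but was found in 8.65% of the cells, with a highest value of 8655 CPM. Cxcl1, a neutrophil chemokine, was found in 21.2%. Of the whole list of chemokines, cytokines and receptors 12 of 33 measured genes were higher and 13 lower than in the other kept barcodes. Under the median-of-ratios scaling these counts were 7 and 19.

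**Figure D2:**
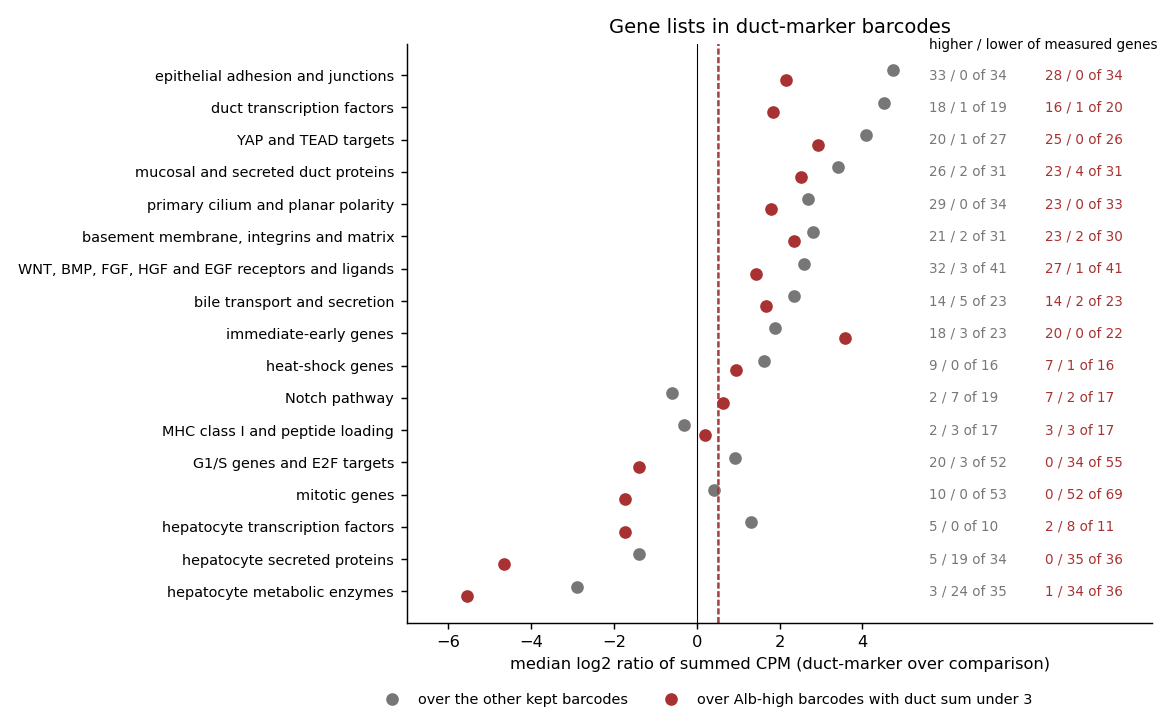
Median log2 ratio of summed CPM for 17 gene lists, cholangiocyte-like cells (duct-marker) over the other kept barcodes (grey) and over the Alb-high barcodes with a duct sum under 3 (red), with the genes at least 2-fold higher and lower at the right. Dashed lines at 0.53 and 0.50 are the medians of all measured genes. The lists keep the rule genes. The junction list has medians of 4.75 and 2.15, and the hepatocyte metabolic list has medians of -2.90 and -5.56.

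Apart from the shared picture, 2 of the 104 cells had no Spp1 UMI and stood apart. The first, with 11312 UMIs, met the rule through 4 Epcam UMIs alone and held 615 Cd74, 308 H2-Aa, 203 H2-Ab1 and 39 Cd209a UMIs, genes of antigen-presenting cells, with 12 of Ccr2 and 8 of Ptprc. The other, with 7286 UMIs, met it through 5 Krt19 and 1 Krt7 UMIs and held 25 Upk3b, 4 Wt1 and 6 Gpm6a UMIs, genes of mesothelium, beside 71 Dcn and 14 Col3a1 UMIs. Both had 0 UMIs of Alb, Ttr and Sox9, and their genes go against the label of cholangiocyte-like cells. Without them 102 cells with 1471533 UMIs remained, and 3502 genes were higher and 1614 lower than in the other kept barcodes.

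Values of MHC class II rest largely on the first of these cells. H2-Aa had 333 UMIs in all, of which 308 lay in that cell, and its summed level was 223 CPM with and 12.9 CPM without the 2 cells. Cd74 was at 586 CPM with and 156 CPM without them, and no other cell held more than 29 Cd74 UMIs. Of the class II genes measured against the Alb-high barcodes, 5 of 5 were higher with the 2 cells and 2 of 4 without them. MHC class I genes had 2 of 17 higher and 3 lower than in the other kept barcodes, or 1 and 8 under the median-of-ratios scaling, with H2-D1 at 2934 against 3568 CPM and H2-K1 at 2088 against 2023 CPM.

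Most markers of Kupffer, T, B and endothelial cells and neutrophils were low. Of 19 Kupffer and macrophage markers 18 had a UMI in the cholangiocyte-like cells, and all 19 were lower than in the other kept barcodes (median -7.89). Kupffer genes of the rule are among them, and without rule genes the median was -7.52. The summed level of the 19 markers ran from 0 through a median of 244 to 1503 CPM per cell. It was 244 CPM in sum against 48912 CPM in the Kupffer-marker barcodes. Clec4f, Cd5l and Vsig4, the defining genes, had 15, 11 and 6 UMIs. The macrophage genes Csf1r and Slc40a1 had 93 and 104 UMIs, in 52.9% and 60.6% of the cells. In the Kupffer-marker barcodes these genes were at 1402 and 2051 CPM. Of 19 T and NK cell markers 2 had a UMI, Cd3e and Nkg7 being at 0, and of 13 neutrophil markers 3 had one, S100a8 and S100a9 being at 0. Of 17 endothelial markers 10 had a UMI with Cdh5 and Stab2 at 0, and of 13 B cell markers 3 had one with Cd79a at 0. The monocyte and dendritic list was at 0 in 78 cells and ran up to 10520 CPM in the remaining ones, its highest value lying in the first cell without Spp1. Of 16 stellate and fibroblast markers 12 had a UMI, with Lrat at 0, and 3 of 6 measured were higher and 2 lower than in the other kept barcodes, or 2 and 3 of 5 without the 2 cells. Among these Rgs5, a pericyte regulator of G-protein signalling, had a UMI in 70.2% of the cells, at 276 CPM against 0 in the Alb-high barcodes. The mesothelial list also holds Krt19 and Krt7, and without the 2 cells 6 of its 7 measured genes were higher than in the other kept barcodes. Among its other genes Msln had 4 UMIs, whereas Gpm6a was found in 46.2% of the cells.

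RNA of liver-specific secreted proteins was present in the cholangiocyte-like cells, but only for some genes. Alb (ENSMUSG00000029368, chr5:90460897-90476602, plus strand) had a UMI in 100 of the 104 cells and ranged from 0 through a median of 2251 to 4875 CPM, where the rule set the upper limit. In sum it was at 2269 CPM, against 24042 in the Alb-high barcodes and 218 in the Kupffer-marker barcodes, of which 44.2% had an Alb UMI. Thinned to 1000 UMIs per barcode, 78.8% of the cholangiocyte-like cells and 20.8% of the Kupffer-marker barcodes kept one. Ttr, which encodes the thyroid hormone carrier transthyretin, had a UMI in 101 cells and ranged from 0 through 2518 to 6822 CPM, at 2478 CPM in sum against 8046 in the Alb-high and 23.4 in the Kupffer-marker barcodes. Ambp, the precursor of alpha-1-microglobulin, was found in 101 cells too, at 929 against 1817 and 4.98 CPM. The levels of these 3 transcripts thus lay far above those of the Kupffer-marker barcodes of the same library.

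Other transcripts that were abundant in the Alb-high barcodes were nearly missing. Apoa1 (ENSMUSG00000032083, chr9:46228580-46230466, plus strand), the main protein of HDL, had 11 UMIs in 6 of the 104 cells with at most 4 in a cell. Its summed level was 7.38 CPM (3.69 to 13.2) against 6598 CPM in the Alb-high barcodes, where 35 of 37 had a UMI. Apoa2 had 5 UMIs, Apoc3 2 and the antithrombin gene Serpinc1 1, against 5744, 2907 and 1776 CPM. The urea cycle enzyme Cps1 had 1 UMI against 1349 CPM, and the drug-metabolising Cyp3a11 and the urinary protein Mup20 had 0 against 1397 and 2194 CPM. The imprinted RNA H19 had 2 UMIs, 1.34 CPM (0.163 to 4.85), against 7074 CPM in the Alb-high barcodes. Apoa1, Apoa2, Apoc3 and Cps1 were also below their levels in the Kupffer-marker barcodes, which were 25.3, 40.1, 17.3 and 21 CPM.

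The promoters of 4 of these genes are shown because the genes lie on opposite sides of this difference. Each line gives the 250 bases before the start annotated in the RefSeq table of GRCm38.p6, 5' to 3' on the gene's own strand. Capitals mark GTTAAT, an HNF1 half-site, and CAAAGTC, an HNF4 site core, on either strand. These starts differ from the gene positions given above. The Apoa1 window runs past the gene start given there, and the Alb window ends short of it. The windows are chr5:90460620-90460869 (Alb), chr11:78498870-78499119 (Vtn), chr9:46228380-46228629 (Apoa1) and chr6:71199629-71199878 (Fabp1), all on the plus strand.
Alb: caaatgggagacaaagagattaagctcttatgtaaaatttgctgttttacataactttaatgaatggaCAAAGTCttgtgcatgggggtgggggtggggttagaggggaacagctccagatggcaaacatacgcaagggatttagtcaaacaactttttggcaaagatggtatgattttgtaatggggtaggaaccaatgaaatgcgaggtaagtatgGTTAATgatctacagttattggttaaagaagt
Vtn: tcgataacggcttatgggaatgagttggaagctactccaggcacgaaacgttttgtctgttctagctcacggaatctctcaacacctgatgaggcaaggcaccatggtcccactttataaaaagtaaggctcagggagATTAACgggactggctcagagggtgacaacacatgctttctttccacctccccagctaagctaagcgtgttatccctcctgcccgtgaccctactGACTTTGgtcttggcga
Apoa1: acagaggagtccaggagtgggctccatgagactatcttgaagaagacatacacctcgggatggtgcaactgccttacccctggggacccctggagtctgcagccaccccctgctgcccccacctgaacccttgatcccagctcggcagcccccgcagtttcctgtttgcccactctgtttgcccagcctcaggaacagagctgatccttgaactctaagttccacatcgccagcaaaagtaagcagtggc
Fabp1: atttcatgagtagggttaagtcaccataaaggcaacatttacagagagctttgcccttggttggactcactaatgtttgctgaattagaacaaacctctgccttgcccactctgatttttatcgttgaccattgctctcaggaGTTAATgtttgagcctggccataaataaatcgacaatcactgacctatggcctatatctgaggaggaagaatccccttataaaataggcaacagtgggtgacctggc

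Of 32851 windows of this length in the table, 6.43% hold GTTAAT and 3.84% CAAAGTC on either strand. Alb and Vtn hold a match of each. Vtn, which encodes vitronectin, had 993 UMIs in 76 of the cholangiocyte-like cells. Fabp1, the liver fatty acid binding protein, holds a GTTAAT match and had 3 UMIs against 2556 CPM in the Alb-high barcodes, while Apoa1 holds neither string. The Apoa2 windows hold neither string too. Of genes whose RNA was present in the cholangiocyte-like cells, Ambp holds neither string and Gc a GTTAAT match without CAAAGTC. Ahsg, also present, holds 2 CAAAGTC matches and no GTTAAT. Letters alone do not show binding. Ttr, Trf, Cps1 and Mup20 had no entry in the table.

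The liver transcripts were also set against Alb, as a description, because the rule fixed Alb low in the members and high in the Alb-high barcodes and so shifts every such ratio alike. The ratios ran over a wide range without a clear gap. Per 100 Alb UMIs the cholangiocyte-like cells held 109 of Ttr and 40.9 of Ambp, against 33.5 and 7.56 in the Alb-high barcodes. Vtn stood at 29.4 against 11.6 and complement C3 at 61.0 against 21.1. Gc, the vitamin D carrier, and Ahsg, fetuin-A, were close between the sets, at 29.1 against 22.4 and 29.2 against 34.1. Apoa1 stood at 0.325 against 27.4, Apoa2 at 0.148 against 23.9 and the fibrinogen chain Fgb at 1.04 against 12.7. The other fibrinogen chains Fga and Fgg were at 3.58 against 5.13 and 8.37 against 9.78, so the chains of this hexamer were not in step. Of 62 hepatocyte genes compared this way, 13 were at least 2-fold more per Alb UMI, 36 at least 2-fold less, of which 20 were at least 10-fold less, and 13 within 2-fold, limits that cut through this range. In the Kupffer-marker barcodes, Apoa1 stood at 11.6 and Ttr at 10.8 per 100 Alb UMIs.

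As whole lists, hepatocyte secreted proteins had 35 of 36 measured genes lower and none higher than in the Alb-high barcodes (median -4.66), and hepatocyte metabolic enzymes had 34 of 36 lower and 1 higher (-5.56). The secreted list holds Alb, which defined both sets, and without it the median was -4.72. The bile acid importer Slc10a1 had 0 UMIs against 245 CPM. Against the Kupffer-marker barcodes 22 of 29 measured secreted protein genes were higher and 5 lower (median 2.04). The metabolic enzymes went the other way there, with 7 of 29 measured genes higher and 17 lower (-2.15).

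**Figure D3:**
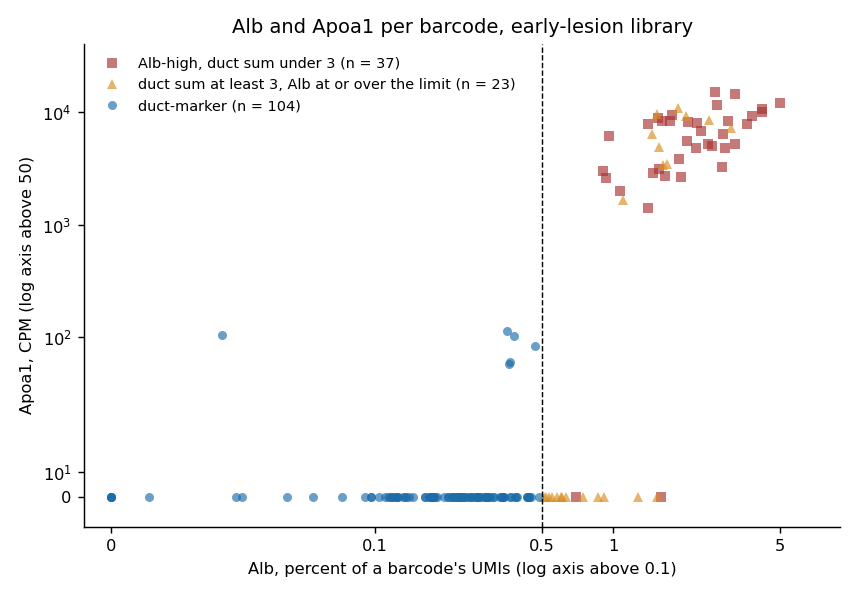
Apoa1 CPM (log axis above 50) against Alb as a percent of UMIs (log axis above 0.1), a point for each barcode: 104 cholangiocyte-like cells (duct-marker), 23 barcodes with a duct sum of at least 3 left out for Alb, and 37 Alb-high barcodes. The dashed line is the 0.5% limit of the rule, and 13 of the 23 barcodes to its right lie at 0 Apoa1 UMIs, as do 98 of the 104 cells.

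**Figure D4:**
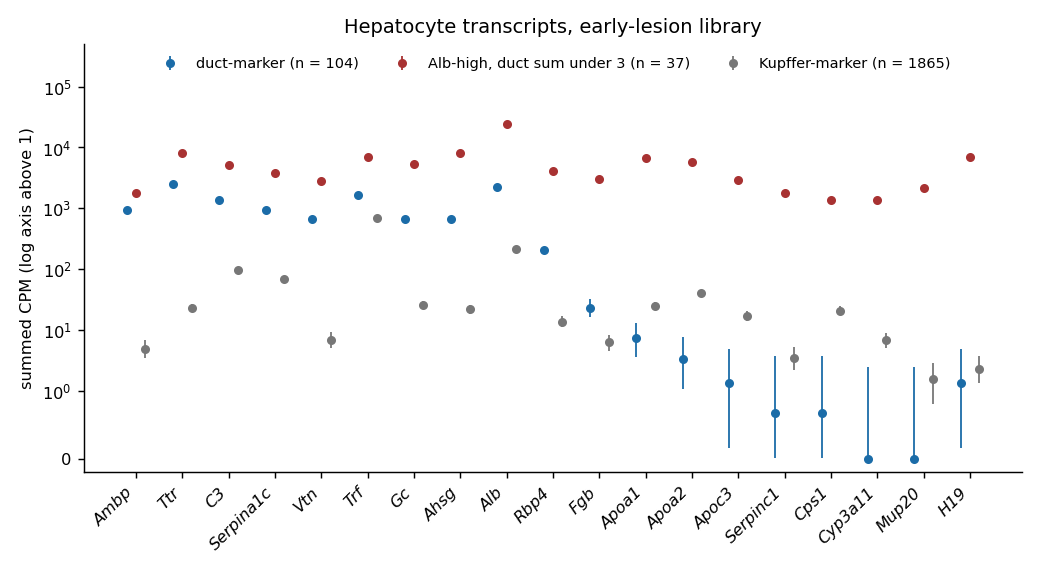
Summed CPM (log axis above 1) of 19 liver transcripts in the 104 cholangiocyte-like cells (duct-marker), 37 Alb-high and 1865 Kupffer-marker barcodes, with 95% Poisson intervals that cover counting error only. In the cholangiocyte-like cells Ambp, Ttr and Alb lie between 929 and 2478 CPM, and Apoa1 and Apoa2 lie at 7.38 and 3.36 CPM.

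Barcodes left out for Alb are described by whether they held Apoa1. Of the 23, 13 had 0 Apoa1 UMIs, and these 13 all held Epcam UMIs, 105 to 794 Spp1 UMIs and no H19 UMI, with Alb at up to 1.52%. The other 10 had 23 to 239 Apoa1 UMIs, and all 10 held Tspan8 and H19 UMIs, none held Krt19 or Krt7, and 2 held Epcam, with Alb from 1.09% upwards. Some of the 13 held neither Krt19 nor Krt7 as well. Spp1 ran from 0 to 240 UMIs in the 10. The barcode with 23 Apoa1 UMIs held those 240 Spp1 UMIs with 2 of Epcam and 17 of H19, so it lay between the groups. The Alb limit thus left out barcodes with and without Apoa1, and those without it held Epcam and Spp1 like most members. Against all 60 barcodes at or over the Alb limit with a Kupffer sum under 3 UMIs, these 23 included, 2396 of 10072 genes (23.8%) were higher in the cholangiocyte-like cells and 1020 (10.1%) lower. Several lists of duct genes had lower medians there than against the 37 Alb-high barcodes. Junction genes had 24 higher and 0 lower of 34 (median 1.58), and duct transcription factors 13 and 1 of 20 (1.26). Transport genes had 11 and 3 of 24 (0.80), and secreted genes 22 and 4 of 31 (1.51). Cilium genes had 22 and 0 of 33 (1.42), and signalling receptors and ligands 21 and 1 of 41 (1.05).

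Cell cycle genes were low in most of the cholangiocyte-like cells and high in a few. Mki67, a marker of cycling cells, had UMIs in 9 of 104 cells (8.65%, 4.03 to 15.8), against 26 of 37 Alb-high barcodes (70.3%, 53 to 84.1) and 5.31% of the Kupffer-marker barcodes. Thinned to 1000 UMIs per barcode, these shares were 3.85%, 16.2% and 1.72%. Mki67 and Top2a together had at least 9 UMIs in 9 cells, 1 to 3 UMIs in 6 cells and 0 in the remainder, so the 9 cells stood apart. The mitotic list ranged over the cells from 458 through a median of 1834 to 55651 CPM, and the 9 cells all lay at 11033 CPM or above.

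Read over lists, mitotic genes had 52 of 69 measured genes lower and none higher than in the Alb-high barcodes (median -1.73), and G1/S genes and E2F targets had 34 of 55 lower and none higher (-1.39). Against the other kept barcodes 20 of 52 G1/S genes were higher and 3 lower (median 0.91), but under the median-of-ratios scaling 4 were higher and 7 lower (0.26), and the median of the mitotic list turned from 0.41 to -0.24, so no direction is given for that contrast. Rrm2, a ribonucleotide reductase subunit, had 21.5 against 336 CPM in the Alb-high barcodes, and E2f1, itself an E2F target, had 14.1 against 63.4 CPM. The list of RB family genes, E2F factors, cyclins and CDK inhibitors had no common direction. Of 26 measured, 8 were higher and 8 lower than in the Alb-high barcodes (median 0.03), or 5 and 9 under the median-of-ratios scaling. The D-type cyclin genes Ccnd1 and Ccnd2 were higher. Ccnd1 ranged from 0 through a median of 123 to 1117 CPM per cell, at 206 CPM in sum against 8.85 in the Alb-high barcodes, Ccnd2 was at 205 CPM against 0 UMIs, and their kinase Cdk4 was at 315 against 156 CPM. The inhibitor Cdkn1a, p21, was at 83.9 against 298 CPM, and Cdkn2a, which encodes p16 and p19ARF, had 25 UMIs in 5.77% of the cells.

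Of 12 measured oncofetal and progenitor genes 7 were higher and 3 lower than in the Alb-high barcodes (median 1.71), or 6 and 4 under the median-of-ratios scaling, the lower ones without it being H19, Igf2 and Cdkn1c. Bex4 had 328 against 4.42 CPM in the Alb-high barcodes and was found in 97.1% of the cells, and Bex1 had 307 against 139 CPM. Peg3, a paternally expressed zinc-finger gene, was at 106 against 1.47 CPM, and Grb10, a growth factor receptor adaptor, at 69.8 CPM against 0 UMIs. Igf2 had 0 UMIs against 47.2 CPM, and Cdkn1c, an imprinted inhibitor of cyclin-dependent kinases, had 16.8 against 75.2 CPM. Afp had 1 UMI.

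Immediate-early genes, which are induced within minutes of a stimulus that includes enzymatic dissociation, varied widely between the cells. Of 23 measured 18 were higher and 3 lower than in the other kept barcodes (median 1.88), and of 22 measured 20 were higher and none lower than in the Alb-high barcodes (3.58). The list's sum ranged from 522 through a median of 7411 to 66891 CPM per cell. Fos ranged from 0 through 720 to 12705 CPM and had no UMI in 33 of the 104 cells. Of the cells 68.3% had a Fos UMI, 51.0% after thinning to 1000 UMIs, against 6.43% of the Kupffer-marker barcodes thinned alike. Jun and Egr1 were at 2181 and 849 CPM, against 183 and 35.4 CPM in the Alb-high barcodes. Heat-shock genes had 9 of 16 higher and none lower than in the other kept barcodes (median 1.61), with Hspb1 at 890 against 20 CPM and Hspa1a at 923 against 244 CPM.

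Targets of YAP and its partner TEAD were higher as a list. Of 27 measured 20 were higher and 1 lower than in the other kept barcodes (median 4.09), and of 26 measured 25 were higher and none lower than in the Alb-high barcodes (2.92). Cyr61, a secreted matricellular protein, ranged from 0 through a median of 644 to 10562 CPM per cell and was at 0 in 29 cells. It was at 1326 CPM in sum against 39.8 in the Alb-high barcodes, and Ctgf was at 680 against 1.47 CPM, or 1 UMI. Ankrd1, an ankyrin-repeat cofactor, had 196 UMIs in 42.3% of the cells and 4 in all other kept barcodes (ratio 341, 131 to 1264), and 6.73% of the cells kept one after thinning to 1000 UMIs. F3, tissue factor, was at 162 against 4.42 CPM. Yap1 and Wwtr1 (TAZ) were at 51.0 and 71.8 CPM, against 25.1 and 13.3 CPM.

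The promoters of Cyr61 and Ankrd1 are shown because these genes were the target genes of the list with the most UMIs and with the highest ratio. They are given as above, on the genes' minus strand, chr3:145649986-145650235 and chr19:36119845-36120094, and capitals mark GGAATG, the TEAD site, on either strand.
Cyr61: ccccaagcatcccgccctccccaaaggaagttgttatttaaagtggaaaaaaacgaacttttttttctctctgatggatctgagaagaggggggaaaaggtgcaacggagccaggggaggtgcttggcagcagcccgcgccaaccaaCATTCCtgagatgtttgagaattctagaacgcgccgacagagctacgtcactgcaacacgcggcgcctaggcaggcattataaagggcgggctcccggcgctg
Ankrd1: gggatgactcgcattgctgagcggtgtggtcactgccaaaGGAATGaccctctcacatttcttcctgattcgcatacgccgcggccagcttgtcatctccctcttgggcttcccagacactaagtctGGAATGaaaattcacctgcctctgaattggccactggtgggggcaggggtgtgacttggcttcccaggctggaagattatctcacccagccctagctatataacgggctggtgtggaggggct

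Cyr61 holds 1 match and Ankrd1 2, and 12.6% of all 32851 windows hold GGAATG on either strand. None of the windows of Cyr61, Ankrd1, Fos and Jun holds TGANTCA, the AP-1 site, which 6.75% of windows hold. Ctgf and Hes1 had no entry in the table.

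Some of these genes moved together from cell to cell. Over the 104 cells, which share a library and differ in depth, the Spearman correlation with the immediate-early sum was 0.78 for Cyr61, 0.76 for Hes1, 0.73 for the actin gene Actg1 and 0.59 for Hsp90aa1. For whole lists it was 0.63 for the YAP and TEAD targets, which include Cyr61, 0.61 for the heat-shock genes and 0.41 for the keratins, against 0.06 for the cilium genes and -0.12 for the secreted duct proteins. It was 0.31 for the number of UMIs and -0.31 for the mitochondrial percent, and it was -0.35 for Epcam. The part of dissociation in these levels was not tested.

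**Figure D5:**
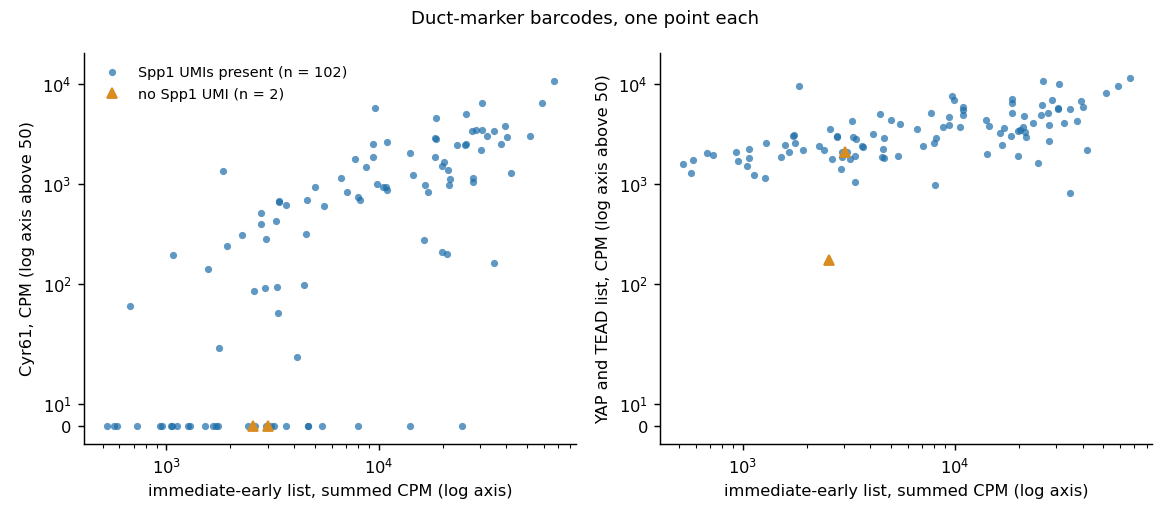
Cyr61 (left) and the summed YAP and TEAD list (right) against the summed immediate-early list, in CPM on log axes (above 50 on the vertical axes), a point for each of the 104 cells. The 2 triangles are the cells with no Spp1 UMI. The immediate-early sum spans 522 to 66891 CPM, and Cyr61 is at 0 in 29 cells that lie mostly at its lower values.

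Further genes set the cholangiocyte-like cells apart from the other kept barcodes, and 2 of them were carried by few cells. Msmp had 326 UMIs in 20 cells, 192 of them in 1 cell, and 1 UMI elsewhere. Sprr1a, a cornified envelope gene, had 473 UMIs in 4 cells, 465 of them in 1 cell. By contrast Rassf9 (112 UMIs in 59.6% of the cells, ratio 156), Veph1 (54.8%, ratio 116), the G-protein-coupled receptor Adgrg1 (65.4%, ratio 90.1), the T-box factor Tbx1 (53.8%, ratio 102) and the kinesin Kif12 (56.7%, ratio 82.0) were spread widely. Cldn8 (47.1%) and the collagen chain Col4a5 (51.9%) had ratios of 268 and 119. S100a6, a calcium-binding protein, was found in 19.2% of the cells at up to 4697 CPM, and Ly6d likewise in 19.2% at up to 3187 CPM. The genes lowest against the other kept barcodes were those of macrophages, led by Gpnmb with 1 UMI against 479 CPM, Wfdc17 with 9 UMIs against 4110 CPM and C1qa with 9 UMIs against 3802 CPM.

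Cholesterol synthesis genes had 20 of 34 higher and 1 lower than in the other kept barcodes (median 1.28), but 4 higher and 6 lower than in the Alb-high barcodes (0.07). Scaled by the median of ratios, these were 14 and 3, and 1 and 10 (-0.36). The oxidosqualene pathway genes Sqle and Msmo1 were at 96.6 against 60.5 and 168 against 48.7 CPM in the latter contrast, whereas Scd1, a fatty acid desaturase, had 3 UMIs against 214 CPM. Secretory pathway genes had 2 of 22 lower and none higher than in the other kept barcodes. In the oxidative stress list, the ferritin genes Fth1 and Ftl1 were at 4528 against 14596 and 1821 against 14000 CPM in the other kept barcodes, and the haem oxygenase Hmox1 had 16 UMIs against 1455 CPM.

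In the macroscopic library 3 of 212 kept barcodes met the rule (1.42%, 0.293 to 4.08). They did so through 4, 5 and 4 Epcam UMIs, with 0 UMIs of Krt19, Krt7 and Tspan8, with 0, 3 and 2 Spp1 UMIs and with 1, 0 and 0 Clu UMIs. These barcodes held 9556 to 42885 UMIs, a depth within or above the range of the early cells. Another 38 kept barcodes of that library had a duct sum of at least 3 UMIs but Alb over the limit, with 3548446 UMIs in all. In these the sum came chiefly from Epcam, which was found in all 38 at 129 CPM, while Krt19 and Krt7 had 4 UMIs each in 1 barcode and Tspan8 was found in 2. All 38 held Spp1 (2762 CPM), Clu (2428 CPM) and Apoa1 (9894 CPM), and 36 held H19. Stage and library cannot be told apart.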

How the data were processed

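Each library was a 10x Genomics 3' gene expression matrix of UMI counts per gene and barcode, deposited by the authors as whole numbers for 31053 features. Cell Ranger 3.0.2, Seurat 2.3.0 and the build mm10 are named in the submitters' processing notes, without their roles. The early library held 3221 barcodes and 12637053 UMIs, and 2461 barcodes were kept, after 656 with under 1000 UMIs or under 300 genes and 104 with over 25% of UMIs from mitochondrial genes had been dropped. The members and the 38 gene lists (1048 symbols, 5 of them absent from the features) were chosen with earlier results of these data known.

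UMIs were summed over the barcodes of a set and given as CPM with exact 95% Poisson intervals, shares with Clopper-Pearson intervals, and ratios with exact conditional binomial intervals, all for counting error only. A gene at 0 in a set was given a floor of 3 UMIs over the set's sum. Named genes were the rule and label markers and the key genes of each list. Up to 6 other genes of each list with the most UMIs in the members were added. The 25 highest ratios over the other kept barcodes and the 10 highest over all 60 barcodes at or over the Alb limit followed. These were taken among genes with at least 50 CPM in the sum of the members and a UMI in at least 10% of members. The 10 lowest ratios in both contrasts and the 10 most variable genes were named too. Ptprc, Fga, Fgg and Actg1 fall outside this rule and were chosen after their values were seen, and some genes that the rule names are not reported here. The comparison with the 37 Alb-high barcodes with a duct sum under 3 was chosen after seeing the data. Thinned shares rest on a single draw of 1000 UMIs per barcode. Positions are from GENCODE M21 (GRCm38), which held 30934 features, and 36 symbols occur more than once among the features.

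Python 3.11.15 with numpy 2.4.6, pandas 2.3.3, scipy 1.17.1, matplotlib 3.10.9 and scanpy 1.11.5 (Scrublet) was used, and the ratio and interval code was tested on simulated data. Alternatives changed the barcode limits, the Alb and duct limits, the scaling, the weight of barcodes, the measured limits and the depth.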

Additional observations from a re-analysis of the deposited data

How the results depend on the processing

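No paired analysis was possible because each stage has 1 library and the labels give no shared replicate numbers, and no replicate could be left out. Counts against barcodes with high Alb are here those against all 60 such barcodes (2396 higher and 1020 lower), since these alternatives were not run on the counts of all genes against the 37. With the Alb limit at 0.1% of UMIs 14 members remained, and the set with high Alb was redrawn at that limit too. Former members with Alb at 0.1% or more then joined the other kept barcodes. Those with a Kupffer sum under 3 joined the redrawn set with high Alb. Against that redrawn set, which is not the 60 barcodes, 939 genes were higher. Over the other kept barcodes, which then held those former members, the log2 ratios turned to 1.30 for Ccr2 and -0.86 for Msmp. They turned to -1.97 for Pigr and -0.84 for Vtn. These values thus set the 14 cells partly against other cholangiocyte-like cells. Median-of-ratios scaling gave 2017 genes higher and 2547 lower than in the other kept barcodes, 1537 higher than in the 60 barcodes, and 2413 higher and 2597 lower than in the Kupffer-marker barcodes. It reversed none of 154 named genes with a log2 ratio over the other kept barcodes, but moved 93 of them outside their counting intervals. It also moved the medians of the mitotic, p53 (0.37 to -0.29) and glycolysis (0.43 to -0.22) lists across 0. Equal weight per barcode moved 95 of the 154 genes in this sense, thinning 91 of 112 and the lower Alb limit 134 of 153. Without the 60 barcodes in the comparison 91 of 149 moved. Thinning to 1000 UMIs, with fewer genes measured, gave 256 higher and 191 lower than in the 60 barcodes and 2244 higher than in the Kupffer-marker barcodes, with Ccr2 at 0.18. Requiring 50 CPM and 50 UMIs gave 1402 higher and 857 lower (other kept), 806 and 591 (the 60) and 1618 and 989 (Kupffer-marker), and requiring 1 UMI alone gave 5378 higher than in the other kept barcodes. Not thinned, UMIs of Fos, Ankrd1 and Foxj1 were in 68.3, 42.3 and 65.4% of the cells. Single genes also turned with a duct sum of at least 6 (Cd209a, -2.42, as all of its 39 UMIs lay in a cell then left out), without the deepest members (10%) (S100a6, -0.18) and without the 60 barcodes in the comparison (Fgb, 1.71). The cause of the other changes was not tested. Leaving out the 2 members without Spp1, an alternative chosen after seeing the data, moved Ccr2, Cd74, Dcn, H2-Aa and H2-Ab1, without a change of sign, among the 151 of 154 genes still measured. No other alternative moved the counts of genes by over 1.5 times. A library per stage, the pooling of 3 mice, and a sort on YFP limit all values to these cells, and 1 UMI is 0.671 CPM, so genes with a few UMIs are imprecise.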

Other observations

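The early library also held a barcode with strong signal of both duct keratin and Kupffer cell genes, which the rule left out. It had 19082 UMIs, with 21 of Krt19, 100 of C1qb and 0 of Spp1, Sox9 and Alb. Another 31 kept barcodes had a duct sum of 1 UMI and 2294 had 0, so few barcodes lay between the members and the background of the library.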
